A study of Mus musculus with 6 samples.

Results

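The genes described here are 31 genes that mark macrophages, read in dorsal root ganglia of mouse embryos, the clusters of sensory neurons and glia beside the spinal cord. They were chosen by name, and all 31 had a row among the 17971 genes of the processed table. Of these, 29 had enough counts to be tested, among 14338 genes tested in all; the exceptions were Cd14 and Cd163. The 3 cKO libraries came from embryos of genotype Wnt1-cre+/-;Ybx1fl/fl, and the 3 Ctrl libraries from Ybx1fl/fl littermates without Cre, so that floxed Ybx1 was common to both groups. All embryos were male and taken at stage E13.5. Cre under Wnt1 control acts in the neural crest lineage, which forms the neurons and glia of the ganglia. No library carried Cre with intact Ybx1, so an effect of Cre itself and of the loss of Ybx1 cannot be told apart. Replicate numbers run from 1 to 3 in both groups, and a cKO and a Ctrl library with the same number are called a pair.

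Macrophages of the embryo arise from blood-forming tissues, not from the neural crest, and settle in nearly every organ while it is being built. Their survival depends on the receptor encoded by Csf1r, and their identity on the transcription factor PU.1, encoded by Spi1. In developing nerve tissue they are known for clearing dying cells, for which they use scavenger receptors, the complement component C1q and a large set of lysosomal enzymes.

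Of 16464264 to 17446385 estimated counts per library, the 31 genes held 0.0691%, 0.0527% and 0.0535% in cKO libraries 1, 2 and 3 and 0.0472%, 0.0465% and 0.0510% in Ctrl libraries 1, 2 and 3. Ybx1, the targeted gene, stood at 137, 122 and 108 normalised CPM (counts scaled so that libraries of different depth can be compared) in cKO and at 927, 809 and 817 in Ctrl, which goes with every genotype label. In cKO replicate 1 the red blood cell genes summed to 10725 CPM, against 2613 to 4637 CPM in the other 5 libraries. That library also held the highest value of 26 of the 29 macrophage genes tested. The part of blood content in the macrophage values was not tested; values within each pair and without that library are given with the results. In bulk tissue, a difference in the number of macrophages cannot be told apart from a difference in RNA per macrophage.

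The macrophage label held against the data. Csf1r was at 38.2 ± 8.09 CPM in cKO and 28.3 ± 2.22 CPM in Ctrl (SD, n = 3 libraries per group), and Adgre1, which encodes the F4/80 antigen of mouse macrophages, at 7.90 ± 1.60 CPM in cKO and 5.86 ± 0.401 CPM in Ctrl. The monocyte genes Ccr2 and Ly6c2 did not exceed 0.634 and 0.291 CPM in any library. The T cell gene Cd3e did not exceed 0.123 CPM, and the mast cell protease gene Mcpt4 was at 0 in 5 of 6 libraries. These genes were picked from longer lists. The monocyte list summed to 549 to 686 CPM and the mast cell list to 142 to 182 CPM. Those sums came mostly from Fn1 and Vcan and from Kit, which other cells of the tissue also express. The neutrophil list summed to 9.91 CPM at most. Per unit of transcript length (TPM), the levels in cKO ran from 0.0833 ± 0.0551 TPM for Cd163, a haemoglobin scavenger receptor, to 119 ± 3.47 TPM for Coro1a, an actin-binding protein of leukocytes that neurons also make. In Ctrl they ran from 0.0433 ± 0.0231 to 111 ± 4.98 TPM for the same genes. By CPM, Dab2, Coro1a and Stab1 led. Dab2 made up 18.1%, 20.8% and 21.6% of the counts of the 31 genes in cKO and 21.5%, 21.3% and 22.3% in Ctrl. Dab2, Stab1, Lyve1 and Mrc1 are also used by endothelial or other stromal cells, so their level is not a measure of macrophages alone.

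Of the 29 macrophage genes tested, Mpeg1 rose in cKO ganglia, and none was called lower. With an adjusted p under 0.05 as the threshold (edgeR, over all genes tested), 0.112% of all genes were called higher, 0.37% lower and 0.481% in either direction. The fitted log2 fold change was above 0 for all 29, against 51.4% of all genes, and its median was 0.39 over the 29 and 0.0044 over all genes. This sign was not particular to the macrophage genes. All 14 red blood cell genes tested were above 0 too, with a median of 0.48. Within pairs, however, 14 of them were higher in the cKO library in pair 1, 3 in pair 2 and 2 in pair 3. At an unadjusted edgeR p under 0.05, 15 of the 29 were higher, against 4.62% of all genes. At the same threshold 0 of the 29 were lower, against 875 of the 14338 genes tested. With the replicate number as a block, which compares libraries within pairs, Mpeg1, Ctss and C1qb were called higher and none lower, where 1.76% of all genes were called higher, 3.56% lower and 5.33% in either direction. In 9 of the 29 genes every cKO library lay above every Ctrl library, against 7.83% of all genes. None lay wholly below, against 8.77%. On the deposited TPM values 11 of the 29 lay wholly above, against 8.34% of all genes, with C1qa and Fcgr1 besides the 9.

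The size of the difference varied between the pairs. The median log2 ratio of the 29 genes, cKO over Ctrl, was 0.64 in pair 1, 0.28 in pair 2 and 0.12 in pair 3. In pair 1 all 29 genes were higher in the cKO library, in pair 2 28 and in pair 3 17. Over all 14338 genes tested, 7441, 7172 and 7018 were higher in pairs 1, 2 and 3. In 16 of the 29 the cKO library was higher in all 3 pairs, against 19.6% of all genes. Without both libraries numbered 1 the median log2 fold change was 0.19. The summed level of the 31 genes was 684, 523 and 530 CPM in cKO and 479, 468 and 515 CPM in Ctrl. The groups did not overlap, though cKO replicates 2 and 3 stood close to Ctrl replicate 3. Coro1a, Dab2 and Stab1 held most of the sum in every library other than cKO replicate 1. The sum without them was 362, 248 and 245 CPM in cKO and 214, 210 and 237 CPM in Ctrl. Leaving them out was a choice made after the values were seen.

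Leaving out cKO replicate 1 lowered the values of most genes, to a median log2 fold change of 0.16. Mpeg1, Ctss and Cybb were then at 0.64, 0.65 and 0.52, and Spi1, Csf1r and Cx3cr1 at 0.30, 0.25 and 0.24. C1qa, C1qb and C1qc were at 0.12, 0.26 and 0.14. Those genes thus stayed above 0 without the library with the highest values. Fcgr1, Aif1, Ptprc, Trem2 and Itgam were at 0.34 to 0.44, and Cd68, Adgre1, Laptm5 and Lyz2 at 0.16 to 0.27. Stab1, Fcgr3, Dab2 and Ms4a7 were at 0.07 to 0.12. The remaining genes were near 0: Tyrobp, Lyve1, Coro1a and F13a1 at 0.01 to 0.03, and Pf4, Mrc1 and Fcer1g at -0.11 to -0.03.

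**Figure D1:**
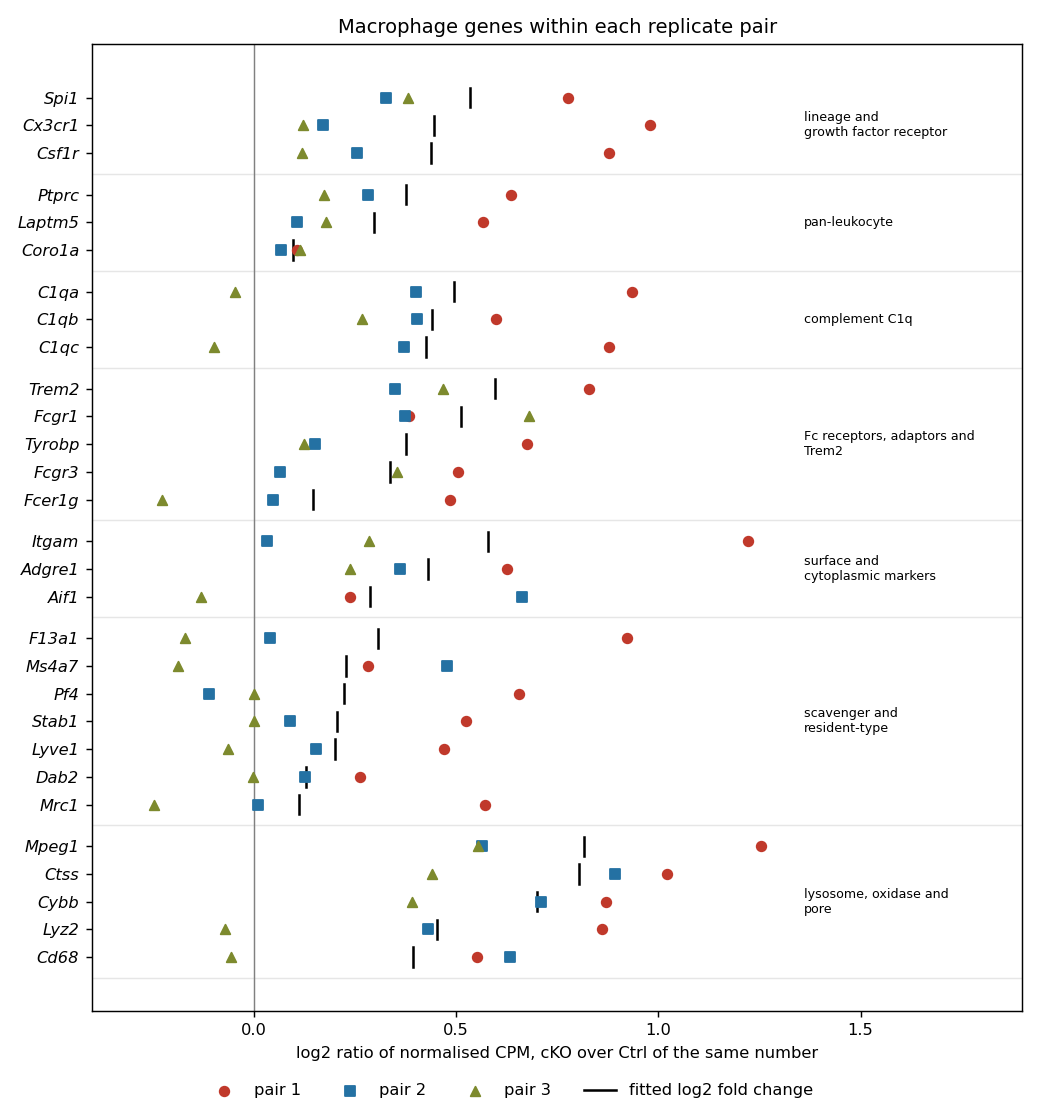
Log2 ratio of normalised CPM, cKO over Ctrl of the same number (horizontal axis), for the 29 macrophage genes tested, grouped by role (vertical axis); symbols are the 3 pairs and black bars the fitted log2 fold change over all 6 libraries. Pair 1 gives the highest ratio for most genes, and Mpeg1, Ctss and Cybb lie well above 0 in every pair. Most of the scavenger genes lie near 0 in pair 2 and at or below it in pair 3.

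The genes with the largest differences encode killing and digesting machinery. Mpeg1 (gene identifier 17476, chromosome 19, 12460770 to 12465285, GRCm38) encodes perforin-2, a pore-forming protein that macrophages turn on engulfed bacteria. It had 16.7, 11.5 and 12.5 CPM in cKO and 6.92, 7.74 and 8.46 CPM in Ctrl. All cKO libraries lay above all Ctrl libraries, with a fold of 1.76 (0.82 on the log2 scale, SE 0.15; edgeR adjusted p 0.0446). With the block the log2 value was 0.81 (SE 0.14; edgeR adjusted p 0.00381). The call without the block was lost on leaving out any library other than cKO replicate 1, with an edgeR adjusted p of up to 0.168, and in limma-voom. The blocked call held without pair 1, 2 or 3, at an edgeR adjusted p of at most 0.00163.

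Ctss (13040, chromosome 3, 95526786 to 95556405) encodes cathepsin S, a lysosomal protease that also trims antigen for presentation. It had 7.90, 5.96 and 5.95 CPM in cKO and 3.84, 3.16 and 4.35 CPM in Ctrl. The groups did not overlap, and the cKO libraries of pairs 2 and 3 were nearly equal. The fold of 1.75 missed the threshold without the block (log2 fold change 0.80, SE 0.17, edgeR adjusted p 0.0715). With the block it passed (0.80, SE 0.15, edgeR adjusted p 0.00632), and also without any single pair (edgeR adjusted p up to 0.0397). Cybb, the membrane subunit of the NADPH oxidase that makes superoxide, had 3.29, 2.22 and 2.45 CPM in cKO and 1.74, 1.31 and 1.84 CPM in Ctrl. Its groups were apart too, but it passed in neither fit (log2 fold change 0.70, SE 0.23, edgeR adjusted p 0.261; 0.0784 with the block).

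Cd68 and Lyz2, of the same role, parted from these in pair 3. Cd68, a lysosomal membrane glycoprotein, had 8.82, 7.83 and 6.06 CPM in cKO and 5.99, 5.002 and 6.31 CPM in Ctrl. Lyz2, which encodes lysozyme, had 14.2, 8.88 and 8.05 CPM in cKO and 7.79, 6.55 and 8.46 CPM in Ctrl. In both genes the cKO library was the lower of pair 3, and neither passed (log2 fold changes 0.39 and 0.45, edgeR adjusted p 0.408 and 0.445). Lyz2 has a near-identical neighbour, Lyz1, with 6 to 17 counts per library, so a few of its reads may be assigned to the wrong copy.

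**Figure D2:**
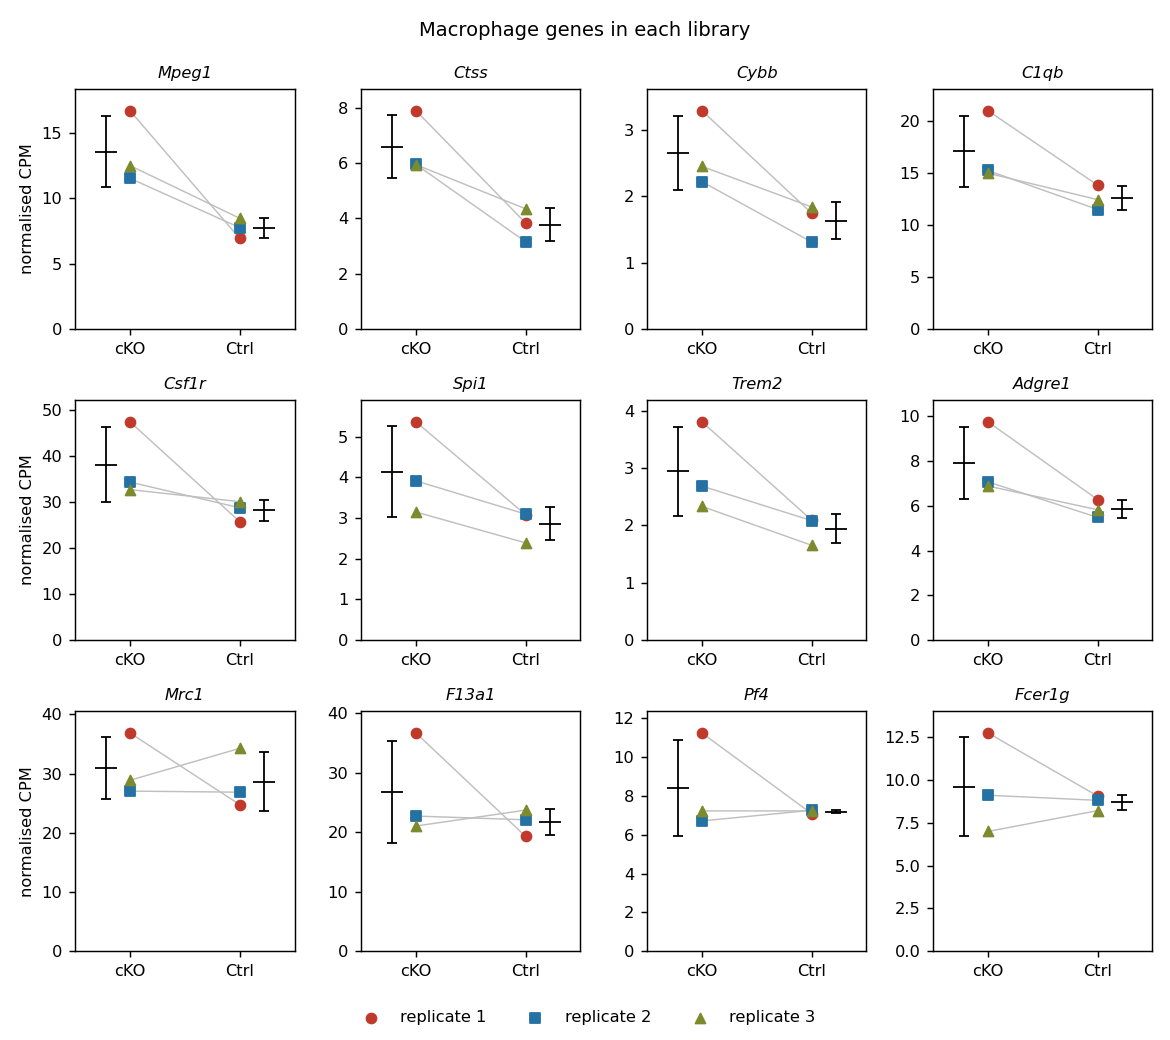
Normalised CPM (vertical axes, each from 0) of 12 macrophage genes in the cKO and Ctrl libraries; symbols mark the replicate number, grey lines join the pairs, and black bars give the mean ± SD of 3 libraries. In the top and middle rows (Mpeg1, Ctss, Cybb, C1qb, Csf1r, Spi1, Trem2 and Adgre1) every cKO library lies above every Ctrl library, and in the bottom row (Mrc1, F13a1, Pf4 and Fcer1g) the groups overlap and cKO replicate 1 is the highest.

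The promoters of the 3 genes called with the block are shown because PU.1 is known to bind GAGGAA and to drive macrophage genes. Each is the 250 bases before the annotated start, from the RefSeq table of GRCm38.p6, 5′ to 3′ on the strand of the gene, with GAGGAA or its reverse complement TTCCTC in capitals.
Mpeg1, chr19:12460520-12460769, plus strand: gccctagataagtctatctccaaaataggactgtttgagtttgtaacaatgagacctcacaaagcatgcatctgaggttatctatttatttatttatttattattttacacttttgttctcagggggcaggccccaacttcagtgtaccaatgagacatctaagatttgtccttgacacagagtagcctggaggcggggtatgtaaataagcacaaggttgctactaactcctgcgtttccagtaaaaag
Ctss, chr3:95526536-95526785, plus strand: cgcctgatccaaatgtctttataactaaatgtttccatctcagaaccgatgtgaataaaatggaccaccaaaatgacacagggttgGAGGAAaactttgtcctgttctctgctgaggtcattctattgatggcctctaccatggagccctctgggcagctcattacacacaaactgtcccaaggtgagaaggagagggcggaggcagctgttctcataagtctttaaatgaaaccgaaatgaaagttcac
C1qb, chr4:136886201-136886450, minus strand: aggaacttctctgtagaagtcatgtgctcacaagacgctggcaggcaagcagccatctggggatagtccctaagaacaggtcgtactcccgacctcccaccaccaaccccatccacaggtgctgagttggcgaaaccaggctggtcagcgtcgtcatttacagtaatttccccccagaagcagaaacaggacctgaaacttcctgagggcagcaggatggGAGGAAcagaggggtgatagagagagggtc
The motif lies 164 bases before the start of Ctss and 30 before that of C1qb, and its letters are not in this window of Mpeg1. Of the 31 genes, 24 had a promoter in the table, and 16 of these (66.7%) held the motif on either strand in the window, against 25.9% of the 27025 genes with a promoter of this length. A gene with several starts was counted once if any of them held it. The longer GAGGAAGT or its reverse complement ACTTCCTC was held by 2 of the 24 (8.33%), against 2.79% of the 27025 genes. A match is a description of letters and does not show binding.

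The genes of complement C1q were higher in cKO in pairs 1 and 2. C1qa, C1qb and C1qc lie side by side on chromosome 4, between 136880126 and 136898844, and encode the 3 chains of the molecule that tags dying cells and synapses for uptake. C1qb had 21.0, 15.2 and 15.0 CPM in cKO and 13.8, 11.5 and 12.4 CPM in Ctrl. Its groups did not overlap, and it rose with the block (log2 fold change 0.43, SE 0.09, edgeR adjusted p 0.0133), but did not pass without it (0.44, SE 0.14, adjusted p 0.231). The blocked call held without any pair, at an edgeR adjusted p of up to 0.0487. C1qa had 19.6, 10.6 and 9.97 CPM in cKO and 10.2, 7.98 and 10.3 CPM in Ctrl. C1qc had 21.6, 13.9 and 12.3 CPM in cKO and 11.7, 10.7 and 13.2 CPM in Ctrl. Both overlapped in CPM, with the cKO library the lower of pair 3, and neither passed in either fit (blocked edgeR adjusted p 0.156 and 0.217). On the TPM scale C1qa had 40.6, 24.7 and 23.4 in cKO and 21.5, 18.3 and 23.3 in Ctrl, so its groups were just apart and pair 3 was level. Without pair 3 both passed with the block (log2 fold changes 0.70 and 0.65, edgeR adjusted p 0.00138 and 0.00126). The 3 chains kept similar proportions: C1qa made up 31.5%, 26.6% and 26.8% of the C1q counts in cKO and 28.5%, 26.4% and 28.7% in Ctrl, and C1qb 33.8%, 38.4% and 40.2% in cKO and 38.8%, 38.1% and 34.6% in Ctrl.

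The genes that define the lineage were above Ctrl in every pair, without passing the test. Csf1r (gene identifier 12978) had 47.5, 34.4 and 32.8 CPM in cKO and 25.8, 28.8 and 30.1 CPM in Ctrl. The groups were apart, but by 0.12 on the log2 scale within pair 3 and by 0.88 within pair 1 (log2 fold change 0.44, SE 0.13, edgeR adjusted p 0.200; 0.216 with the block). Spi1 had 5.36, 3.91 and 3.15 CPM in cKO and 3.08, 3.10 and 2.39 CPM in Ctrl. Its groups were apart as well, with the lowest cKO library just above the highest Ctrl library (log2 fold change 0.53, SE 0.22, edgeR adjusted p 0.404; 0.0999 with the block). Cx3cr1, the receptor for the neuronal chemokine fractalkine, had 17.3, 10.8 and 13.003 CPM in cKO and 8.72, 9.59 and 11.9 CPM in Ctrl, so its groups overlapped (log2 fold change 0.44, edgeR adjusted p 0.358).

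Of the genes shared by most leukocytes, Laptm5 was separated between groups and the others were not. Laptm5, a lysosomal membrane protein of blood cells, had 24.0, 18.2 and 18.6 CPM in cKO and 16.2, 16.9 and 16.4 CPM in Ctrl (log2 fold change 0.30, SE 0.11, edgeR adjusted p 0.347; 0.0900 with the block). Ptprc, the CD45 phosphatase of leukocytes, had 2.60, 2.92 and 2.16 CPM in cKO and 1.63, 2.38 and 1.8995 CPM in Ctrl. It was highest in cKO replicate 2, unlike most of the list (log2 fold change 0.38, SE 0.22, edgeR adjusted p 0.604). Coro1a had 103, 86.4 and 88.1 CPM in cKO and 95.3, 82.4 and 81.4 CPM in Ctrl, and the smallest log2 fold change of the 29 genes, 0.10 (SE 0.09; edgeR adjusted p 0.782).

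The receptors that read antibody and lipid signals gave mixed values. Trem2, a lipid receptor, had 3.81, 2.69 and 2.33 CPM in cKO and 2.09, 2.08 and 1.65 CPM in Ctrl, with no overlap (log2 fold change 0.60, SE 0.23, edgeR adjusted p 0.360; 0.115 with the block). Its signalling adaptor Tyrobp (DAP12) had 6.75, 3.39 and 4.08 CPM in cKO and 4.18, 3.04 and 3.74 CPM in Ctrl. Fcer1g, the adaptor of the Fc receptors, had 12.7, 9.11 and 6.997 CPM in cKO and 9.07, 8.81 and 8.21 CPM in Ctrl. Both adaptors overlapped between groups, and cKO replicate 3 held the lowest Fcer1g value of all libraries (log2 fold changes 0.38 and 0.15, edgeR adjusted p 0.659 and 0.849). Fcgr1, the high-affinity receptor for IgG, had 2.54, 1.81 and 2.62 CPM in cKO and 1.92, 1.37 and 1.59 CPM in Ctrl. Fcgr3, a low-affinity receptor, had 9.29, 5.61 and 6.53 CPM in cKO and 6.51, 5.36 and 5.09 CPM in Ctrl. Both were higher in cKO in all 3 pairs, with overlapping groups (log2 fold changes 0.51 and 0.34, edgeR adjusted p 0.456 and 0.590). Fcgr1 had its highest log2 ratio in pair 3, at 0.68, against 0.38 and 0.37 in pairs 1 and 2.

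Among the surface and cytoplasmic markers, Adgre1 was separated between groups, at 9.75, 7.07 and 6.88 CPM in cKO and 6.28, 5.48 and 5.82 CPM in Ctrl. It came near the threshold with the block but did not pass (log2 fold change 0.42, SE 0.13, edgeR adjusted p 0.0727; without the block 0.43, SE 0.16, adjusted p 0.329). Itgam, the CD11b integrin, had 2.60, 1.34 and 2.04 CPM in cKO and 1.05, 1.31 and 1.65 CPM in Ctrl. Its log2 ratio was 1.22 in pair 1 and 0.03 in pair 2, and it did not pass (edgeR adjusted p 0.518). Aif1, the calcium-binding protein IBA1, rested on 14 to 27 counts per library, with 0.980, 1.58 and 1.17 CPM in cKO and 0.814, 0.953 and 1.29 CPM in Ctrl (log2 fold change 0.29, SE 0.29, edgeR adjusted p 0.809). Cd14, the endotoxin co-receptor, had 13, 9 and 7 counts in cKO and 11, 6 and 4 in Ctrl, and Cd163 had 6, 1 and 3 in cKO and 3, 1 and 1 in Ctrl. Both were too low to test, and differences in them were not detectable at this depth.

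The scavenger and resident-type genes stood above Ctrl mainly in pair 1. None of the 7 tested had groups apart, and none passed in either fit. Mrc1, the CD206 mannose receptor, had 36.9, 27.0 and 28.9 CPM in cKO and 24.8, 26.9 and 34.3 CPM in Ctrl. Pair 1 was higher in cKO by 0.57 on the log2 scale, pair 2 was level at 0.01 and pair 3 was lower at -0.25 (fitted log2 fold change 0.11, SE 0.14, edgeR adjusted p 0.844). F13a1, the coagulation factor XIII subunit of resident macrophages, had 36.7, 22.7 and 21.1 CPM in cKO and 19.3, 22.1 and 23.7 CPM in Ctrl. Pf4, a chemokine of platelets and embryonic macrophages, had 11.2, 6.72 and 7.23 CPM in cKO and 7.09, 7.26 and 7.23 CPM in Ctrl. In both genes cKO replicate 1 stood above all other libraries, which lay together. Without the libraries numbered 1 the log2 fold changes of Mrc1, F13a1 and Pf4 were -0.13, -0.065 and -0.055.

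The other genes of this role were at or below Ctrl in pair 3 as well. Stab1, a clearance receptor, had 96.3, 79.8 and 82.3 CPM in cKO and 66.9, 75.03 and 82.3 CPM in Ctrl (log2 fold change 0.20, SE 0.09, edgeR adjusted p 0.461). Its interval overlaps the coding gene Nt5dc2 and whether counting used strand is not given, so reads of the overlap are uncertain. Dab2, an adaptor for clathrin-mediated uptake, had 123, 109 and 115 CPM in cKO and 103, 99.8 and 115 CPM in Ctrl (log2 fold change 0.13, SE 0.08, edgeR adjusted p 0.619). Lyve1, a hyaluronan receptor, had 15.5, 10.3 and 11.95 CPM in cKO and 11.2, 9.23 and 12.5 CPM in Ctrl. Its cKO libraries of pairs 2 and 3 lay within the Ctrl range. Ms4a7, a membrane protein of macrophages, had 2.08, 1.87 and 1.22 CPM in cKO and 1.69, 1.31 and 1.41 CPM in Ctrl, on 21 to 36 counts per library (log2 fold changes of Lyve1 and Ms4a7 0.20 and 0.23, edgeR adjusted p 0.736 and 0.833). In all 4 genes the groups overlapped. For comparison by role, the median log2 ratio in pairs 1, 2 and 3 was 0.53, 0.09 and -0.06 over the 7 scavenger and resident-type genes, against 0.87, 0.63 and 0.39 over the 5 genes of lysosome, oxidase and pore; the difference between the roles was not tested.

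Setting each gene against Csf1r in the same library gives its level relative to the macrophage growth factor receptor. This view was added after the values were seen and carries no test. Csf1r was itself higher in every cKO library than in every Ctrl library, so a gene level between groups stands lower in cKO here. The shares of all genes on this scale follow from that choice and are no benchmark for single genes. Mpeg1 had 35.1, 33.4 and 38.1 counts per 100 Csf1r counts in cKO and 26.8, 26.9 and 28.05 in Ctrl. Ctss had 16.6, 17.3 and 18.1 in cKO and 14.9, 10.95 and 14.4 in Ctrl. These were the 2 of 28 genes for which every cKO library was above every Ctrl library on this scale, where 0.133% of all genes were. Mrc1 had 77.5, 78.6 and 88.1 per 100 Csf1r counts in cKO and 95.9, 93.2 and 114 in Ctrl, and 5 of the 28 genes lay wholly below, where 61.7% of all genes did. Cx3cr1 had 36.4, 31.4 and 39.7 in cKO and 33.8, 33.3 and 39.6 in Ctrl, with overlapping groups.

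**Figure D3:**
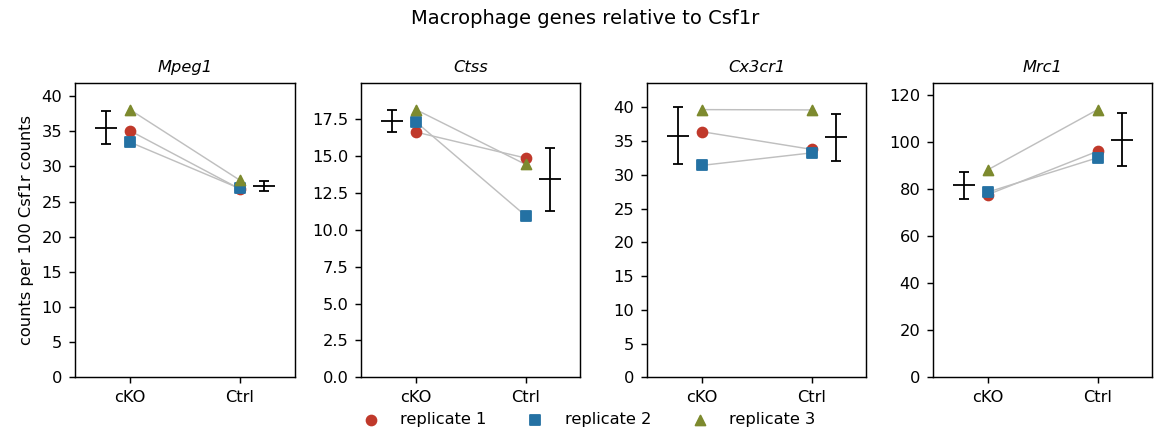
Counts per 100 Csf1r counts of the same library (vertical axes, each from 0) for 4 macrophage genes in cKO and Ctrl; symbols mark the replicate number, grey lines join the pairs, and black bars give the mean ± SD of 3 libraries. Mpeg1 and Ctss are higher in every cKO library than in every Ctrl library, Cx3cr1 overlaps, and Mrc1 is lower in every cKO library.

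Other macrophage genes and the ligands that sustain these cells gave smaller values. Of 53 further macrophage genes, 46 were tested; 42 of these stood above 0, and the median log2 fold change was 0.24. None passed without the block. With the block Apoe, a lipid carrier that glia also make, and Grn, the lysosomal protein progranulin, were higher (log2 fold changes 0.29 and 0.19, edgeR adjusted p 0.0424 and 0.0395). Of 8 microglia-enriched genes 6 were tested, of which 4 stood above 0 and 2 below, with a median log2 fold change of 0.29. Fcrls and Olfml3 were higher with the block (0.48 and 0.27, edgeR adjusted p 0.0441 and 0.0255), where 1.76% of all genes were called higher. Of 7 ligand genes, 6 were tested, with a median log2 fold change of 0.02. Csf1, which feeds Csf1r, had 17.99, 19.7 and 20.1 CPM in cKO and 18.6, 17.9 and 19.7 CPM in Ctrl. Il34, the alternative ligand, was at 0.7498, 1.402 and 0.6997 CPM in cKO and 1.16, 0.953 and 1.04 CPM in Ctrl, and neither passed in either fit. Cx3cl1, which encodes fractalkine, the ligand of Cx3cr1, had 4.84, 4.50 and 4.20 CPM in cKO and 6.10, 6.01 and 4.84 CPM in Ctrl. It was below Ctrl in all 3 pairs, the largest difference of the ligand list, and did not pass (log2 fold change -0.33, SE 0.15, edgeR adjusted p 0.465; 0.228 with the block). Gas6, a bridge between dying cells and their phagocytes, was higher with the block (0.26, edgeR adjusted p 0.0445).

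Lists for other cells did not share one pattern over the pairs. The summed erythroid CPM was 2.36 times that of Ctrl in pair 1 but 0.835 and 0.916 times in pairs 2 and 3. The macrophage sum was 1.43, 1.12 and 1.03 times that of Ctrl in pairs 1, 2 and 3. The endothelial sum was 1.03, 1.01 and 0.928 times that of Ctrl, and no erythroid or endothelial gene passed in either fit. The platelet and megakaryocyte sum was 0.944, 0.799 and 0.886 times, where Gp1bb was lower with the block (log2 fold change -0.37, edgeR adjusted p 0.0100). The neutrophil sum was 9.91 CPM at most in any library, at 1.32, 1.11 and 1.997 times that of Ctrl. Monocyte and mast cell sums, made up mostly of Fn1 and Vcan and of Kit, which other cells of the tissue also express, were 0.822 to 1.095 times that of Ctrl, and lymphocyte sums, of at most 2.54 CPM, 0.689 to 1.32 times. Skeletal muscle genes stood at 1.32, 0.993 and 0.676 times and fibroblast genes at 1.02, 1.14 and 0.956 times, with no gene of either list called in either fit. Schwann and satellite glia genes stood at 1.06, 1.08 and 1.02 times. With the block 5 of 10 were higher, among them S100b and Cdh19 (log2 fold changes 0.44 and 0.36, edgeR adjusted p 0.0204 and 0.0196). Over all genes, 1.76% were called higher with the block and 3.56% lower. Sensory neuron genes stood at 0.958, 1.03 and 1.06 times, with Isl1 and Avil lower with the block (log2 fold changes -0.21 and -0.22, edgeR adjusted p 0.00833 and 0.0123). The part of any of these in the macrophage values was not tested.

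**Figure D4:**
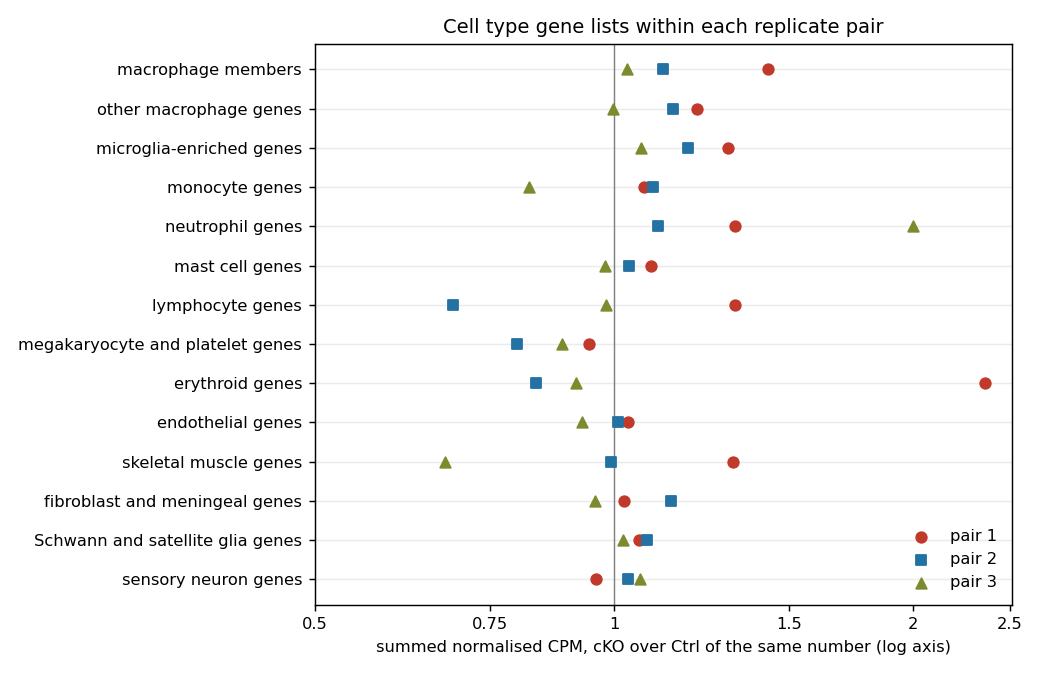
Ratio of the summed normalised CPM of each gene list, cKO over Ctrl of the same number (horizontal log axis), for the macrophage genes and 13 other lists (vertical axis); symbols are the 3 pairs. The macrophage genes stand at 1.43, 1.12 and 1.03 in pairs 1, 2 and 3, and the erythroid genes at 2.36, 0.835 and 0.916.

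The genes whose profile over the 6 libraries was most like that of the summed macrophage genes were not macrophage genes. Among 11865 other genes with at least 5 CPM, the 10 with the highest Pearson r (0.982 to 0.995) were Tfam, Lef1, Adamts16, Mipep, Enpp2, Bcl10, Cd9, Uap1l1, Pum3 and Gnl3, and none belongs to a list used here. Within the 29 macrophage genes, r with their sum ran from 0.06 for Aif1 to 0.98 for C1qc. All of these r values rest on 6 libraries, of which cKO replicate 1 stands apart, and serve as a description.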

How the data were processed

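The 6 libraries, 3 cKO and 3 Ctrl, hold mRNA reads from dorsal root ganglia; RNA came from a Trizol extraction and an mRNA kit, per the labels' protocols, which do not state strand. The submitters' processing notes list RSEM 1.3.1, HISAT2 2.2.1 and Bowtie2 2.4.5 and the build GRCm38 (mm10), without role or order. Per library, the authors deposited estimated counts, not normalised, besides TPM values and FPKM values, both made by the authors; FPKM and the group means entered no comparison.

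Counts were rounded, filtered with filterByExpr and tested in edgeR 4.0.16 (R 4.3.3) by its quasi-likelihood F test with robust estimation (TMM scaling, two-sided, Benjamini-Hochberg adjustment over 14338 genes). The SE was derived from the fold change and F. Log2 ratios within pairs used a prior count of 2. The procedure was checked on simulated counts, for the main fit with less spread than in these libraries. Recovery was required only at folds above those of the macrophage genes, so the check does not vouch for differences of their size. P-values set the group difference against the spread between these libraries within each group. With the block, that is the spread left after differences between pairs are removed.

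Same-numbered libraries share the start of their sample code, and their deviations from the group means correlated at 0.328, 0.205 and 0.184 over all genes, so the numbers were taken as pairs. The analysis without the block was the main one.

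The genes, lists, tests and naming rule were chosen with earlier results of these data known. Values by library are given for genes called, genes whose groups do not overlap and the most abundant of each role, and for others chosen after their values were seen; genes of other lists are named as examples of those called, as defining or abundant markers, or as ligands of these receptors. Protein sequences are not used here. Some genes of the other lists are not reported here. Alternatives were DESeq2 1.42.0 (size factors and test), limma-voom (limma 3.58.1), library totals, other filters, the replicate block, leaving out libraries or pairs, TPM pseudocounts and shorter member lists. The model without both libraries numbered 1 was added after seeing the data. Figures used matplotlib 3.10.9.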

Additional observations from a re-analysis of the deposited data

How the results depend on the processing

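The count of genes called over the whole table was 69, and 44 with library totals, 128 with no filter, 184 with the DESeq2 test, 764 with the replicate block, 799 with the block and library totals, 1252, 260 and 836 with the block and without pair 1, 2 or 3, 731 without both libraries numbered 1, and 18 to 104 on leaving out single libraries. Macrophage genes called higher numbered 1, against 2 with no filter, 2 with the DESeq2 test, 0 with limma-voom, 3 with the replicate block under either scaling, 3, 3 and 8 with the block and without pair 1, 2 or 3, 2 without both libraries numbered 1, and 0 to 1 on leaving out single libraries. None was called lower under any of these settings. The 8 called without pair 3 were Mpeg1, Ctss, C1qa, C1qb, C1qc, Cd68, Cx3cr1 and Lyz2. The cause of these changes was not tested.

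The median log2 fold change of the macrophage genes stayed positive, between 0.16 and 0.51 over the settings run, and was 0.43 without Mrc1, Lyve1, Stab1 and Dab2 and 0.34 over the 19 genes with a mean of at least 100 counts. Medians within pairs kept their order under library totals, TPM with a pseudocount of 1 or 0.1, and all 31 genes. The log2 fold change turned negative without both libraries numbered 1 (F13a1 -0.065, Fcer1g -0.080, Mrc1 -0.13, Pf4 -0.055), with the block and without pair 1 (-0.065, -0.083, -0.12 and -0.056) and, without cKO replicate 1 alone, for Fcer1g, Mrc1 and Pf4. On leaving out single libraries it ran between -0.11 and 0.33 for Fcer1g, -0.033 and 0.26 for Mrc1 and -0.045 and 0.36 for Pf4. Genes under about 30 counts per library, such as Aif1 and Ms4a7, are limited by depth.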
